A study of Mus musculus with 4 samples.

Results

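The 10 genes described here are immediate early genes, which cells switch on within minutes of a stimulus or of tissue dissociation: Fos, Fosb, Jun, Junb, Jund, Egr1, Atf3, Ier2, Nr4a1 and Zfp36. They were chosen by symbol, and each symbol named 1 of the 54348 rows of the deposited expression table. They were measured by RNA-seq in live tdTomato-positive cells collected by sorting from mouse forebrain at postnatal day 4. All pups carried PdgfraCreER, a tamoxifen-activated recombinase driven by Pdgfra, together with AI14, which makes red tdTomato once recombined, and all received tamoxifen by intraperitoneal injection on postnatal days 0 and 1. The 2 control libraries had the genotype PdgfraCreER;AI14. The 2 fusion libraries had the genotype PdgfraCreER;MN1:BEND2;AI14, where MN1:BEND2 is a fusion gene of astroblastoma, a brain tumour. The labels do not say how the fusion transgene is driven, nor whether pups were pooled or of which sex. The comparison addresses how the Pdgfra lineage differed with and without the fusion.

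Immediate early genes need no new protein for their induction. Growth factor, depolarisation or stress signals pass through MAP kinases and calcium to the transcription factors SRF with its ELK partners and CREB, which wait on the promoters of these genes. Fos and Jun proteins pair into the dimeric factor AP-1, Egr1 is a zinc finger factor and Nr4a1 an orphan nuclear receptor. The Zfp36 protein, tristetraprolin, binds AU-rich elements in messengers and hastens their decay, which keeps the response short. Enzymatic dissociation at warm temperature is itself a known inducer of these genes in brain cells. Here forebrains were digested with papain for 30 min at 37 °C before sorting, in both groups.

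The sequences below show promoter letters of 4 members, as a description that bears on no difference between them. They are the 250 bases before the RefSeq start (GRCm38.p6), read 5′ to 3′ on the strand of the gene, for Fos and Nr4a1, which fell, and for Jun and Zfp36, which did not pass the test. Capitals mark the TGACG core of the cyclic AMP response element on either strand, the serum response element (CArG box) and the TATA box TATAAA.
Fos, chr12:85473640-85473889 (plus strand): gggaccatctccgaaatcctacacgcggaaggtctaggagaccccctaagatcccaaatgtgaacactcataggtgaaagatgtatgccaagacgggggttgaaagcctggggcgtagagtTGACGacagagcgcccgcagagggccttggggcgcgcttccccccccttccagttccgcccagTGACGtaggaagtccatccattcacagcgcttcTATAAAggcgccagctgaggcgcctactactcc
Nr4a1, chr15:101266596-101266845 (plus strand): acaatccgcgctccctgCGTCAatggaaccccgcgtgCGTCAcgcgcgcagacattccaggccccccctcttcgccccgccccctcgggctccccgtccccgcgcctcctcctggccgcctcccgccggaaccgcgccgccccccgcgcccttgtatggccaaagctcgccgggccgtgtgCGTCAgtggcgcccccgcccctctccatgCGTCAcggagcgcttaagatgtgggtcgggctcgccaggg
Jun, chr4:95052223-95052472 (minus strand): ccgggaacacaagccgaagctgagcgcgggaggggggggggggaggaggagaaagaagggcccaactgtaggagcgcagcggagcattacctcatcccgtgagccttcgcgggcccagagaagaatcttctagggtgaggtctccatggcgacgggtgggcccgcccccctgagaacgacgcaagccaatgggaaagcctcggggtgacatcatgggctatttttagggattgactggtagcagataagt
Zfp36, chr7:28379229-28379478 (minus strand): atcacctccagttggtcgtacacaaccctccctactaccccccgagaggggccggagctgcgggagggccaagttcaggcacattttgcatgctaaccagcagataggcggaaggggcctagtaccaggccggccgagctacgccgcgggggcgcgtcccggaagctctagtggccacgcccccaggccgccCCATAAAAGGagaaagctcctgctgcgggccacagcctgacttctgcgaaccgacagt

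Of the 10 members, 8 had an entry among the RefSeq promoters. The core TGACG, or its reverse complement CGTCA, was found in 5 of the 8, namely Atf3, Fos, Fosb, Junb and Nr4a1, and in 17.8% of all 32851 promoters of that length. Fos held it at 129 and 66 bases before the start, measured to its upstream edge. Nr4a1 held it 4 times, at 233, 213, 69 and 40 bases. The serum response element was found in 1 of the 8, Zfp36, at 58 bases, and in 1.47% of all promoters. The TATA box was found in Fos alone, at 33 bases, and in 12.4% of all promoters. Neither the full element TGACGTCA nor the AP-1 site TGANTCA was found in any of the 8, and 1.55% and 6.75% of all promoters held them. Jun held none of the searched motifs in this window, and sites further upstream were not searched. A match is a description of letters, not of binding.

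The decay signal bound by tristetraprolin was searched in the 3′ untranslated regions (GENCODE M21). The nonamer TTATTTATT was found in 2 of 10 members, Fos and Zfp36, and in 8.21% of the 11257 tested genes with such a region. Both sites are shown with 8 bases on each side, the nonamer in capitals.
Fos, chr12:85477105-85477129 (plus strand): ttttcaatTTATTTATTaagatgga
Zfp36, chr7:28376953-28376977 (minus strand): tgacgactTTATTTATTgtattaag

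Values are TPM, a length-scaled share of transcripts, which account for transcript length and the library total but keep no read depth. The libraries of the groups stood apart. The mitochondrial genome supplied 10.1% and 7.30% of all TPM in the controls against 48.7% and 26.2% with the fusion, and 12772 and 13219 against 9050 and 10017 genes reached 1 TPM. Y-linked Eif2s3y stood at 121 and 122 TPM in the controls and was at a listed 0 in both libraries with the fusion, so sex and genotype cannot be told apart in any result here. Bend2 was at a listed 0 in both controls and at 3.82 and 8.72 TPM with the fusion. All 10 oligodendrocyte precursor markers examined were above 0 in every library. Of them 7 fell and none rose, where 51.3% of all tested genes fell and 4.95% rose. After the rescaling given below, 1 of these markers was lower and 1 higher, where 18.6% and 14.3% of genes were. The summed level of these markers was 1319 and 1702 TPM in the controls against 464 and 592 TPM with the fusion. Pdgfra stood at 337, 429, 123 and 192 TPM (control 1 and 2, then fusion 1 and 2, the order used throughout). The part of mitochondrial share and of sex in the results was not tested.

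Of 12871 genes that reached 1 TPM in 2 or more libraries, 637 rose and 6606 fell with the fusion (limma on log2(TPM + 1), Benjamini-Hochberg adjusted p under 0.05), and the median log2 change was -1.41. Each change of a member is therefore also given after the libraries were rescaled to a median ratio of 1, where 1846 genes were higher, 2396 were lower and the median was -0.15. Fewer cells of a type and less RNA per cell cannot be told apart in such bulk libraries.

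Of the 10 members, 8 entered the test. Fos, Egr1 and Nr4a1 fell, none rose, and Jun, Junb, Jund, Ier2 and Zfp36 did not pass. At the same threshold 51.3% of all tested genes fell and 4.95% rose, so the share of tested members that fell, 37.5%, was not above the background. Both fusion libraries lay below both control libraries for 5 members, against 71.1% of tested genes, and above both for none (10.2% of genes). After rescaling they lay below both for 2 of the 8 tested members and above both for 3 (38.8% and 31.3% of genes), and no tested member passed in either direction, where 18.6% of genes were lower and 14.3% higher. The summed TPM of the 10 members was 91.3 and 126 in the controls and 21.4 and 38.2 with the fusion, and Fos, Egr1 and Nr4a1 made up 80.1%, 88.8%, 74.4% and 58.5% of it. The calls needed both control libraries: no member passed without control replicate 1 or without control replicate 2, where 8.59% and 7.96% of genes fell, though the log2 changes stayed at -2.28 and -1.87 for Fos, -2.19 and -1.41 for Egr1 and -3.86 and -3.40 for Nr4a1. With a library left out, the lone library of its group is assumed to vary like the other group. Without fusion replicate 1, 2 members fell (51.9% of genes) and Jun rose (8.42% of genes rose). Without fusion replicate 2, 5 fell, Junb and Ier2 among them (62.1% of genes).

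**Figure D1:**
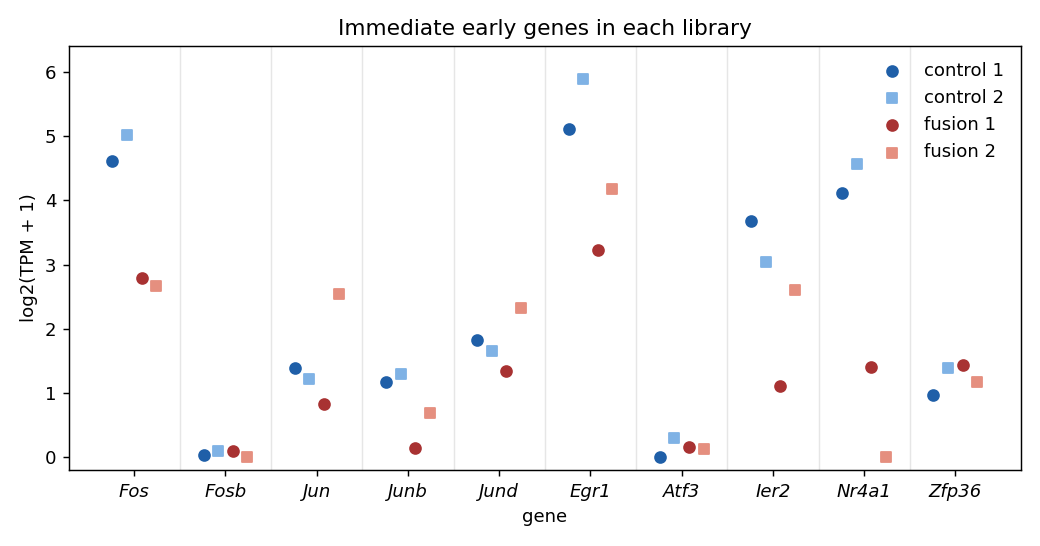
Level of each of the 10 members in each of the 4 libraries, as log2(TPM + 1) on the vertical axis, with circles for replicate 1 and squares for replicate 2. Fos, Egr1, Nr4a1, Ier2 and Junb lie lower in both fusion libraries than in both control libraries, while Jun, Jund and Zfp36 overlap and Fosb and Atf3 lie near 0.

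The FOS family was represented by Fos. Fos (ENSMUSG00000021250.13, chromosome 12, 85473890 to 85477273, GRCm38) encodes the classic inducible partner in AP-1. It had 23.3 and 31.4 TPM in the controls and 5.93 and 5.38 TPM with the fusion. The groups did not overlap, and replicates differed far less than the groups. The mean was 27.4 ± 5.66 TPM in controls and 5.65 ± 0.391 TPM with the fusion (SD, n = 2), 4.84-fold higher in the control, a log2 change of -2.08 ± 0.40 (SE, adjusted p = 0.0100, limma). Relative to the median of all genes the change was -0.67, and 31.8% of tested genes had a lower change. After rescaling it was -0.45 ± 0.40 (adjusted p = 0.442, limma). With a correction for GC content and length, which also removes the shift between whole libraries, it was 0.03, in the other direction. Fosb (ENSMUSG00000003545.3), the paralog whose splice form accumulates after repeated stimulation, had 0.0308, 0.0747, 0.0707 and 0 TPM. It was below 0.1 TPM in every library and was not tested.

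The JUN genes did not pass the test. Jun (ENSMUSG00000052684.4, chromosome 4, 95049034 to 95052222), which encodes the main partner of Fos, had 1.61 and 1.33 TPM in the controls and 0.775 and 4.83 TPM with the fusion. The fusion libraries lay on both sides of the control libraries, and the log2 change was 0.38 ± 0.62 (SE, adjusted p = 0.623, limma). Jund (ENSMUSG00000071076.6, chromosome 8, 70698949 to 70700616), the family member that most cells express without a stimulus, had 2.53 and 2.16 TPM against 1.54 and 4.01 TPM. Its groups overlapped too, with a log2 change of 0.10 ± 0.47 (adjusted p = 0.875, limma). For both genes fusion replicate 2 was the highest of the 4 libraries and fusion replicate 1 the lowest, and both changes turned negative, to -0.48 and -0.39, without fusion replicate 2. Relative to all genes they stood 1.79 and 1.502 above the median. After rescaling the changes were 1.39 (adjusted p = 0.151, limma) and 1.29 (adjusted p = 0.0837), with both fusion libraries above both control libraries for each.

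Junb (ENSMUSG00000052837.7, chromosome 8, 84974484 to 84978718), a quickly induced partner that restrains Jun, had 1.25 and 1.45 TPM in the controls and 0.101 and 0.621 TPM with the fusion. The groups did not overlap, but the log2 change of -0.81 ± 0.29 (SE, adjusted p = 0.0584, limma) did not pass, and Junb entered the test through its control values alone. After rescaling it was -0.16 (adjusted p = 0.714, limma), and with quantile-normalized values 0.43, in the other direction. Junb overlaps Prdx2 on the opposite strand, which had 1231, 1356, 187 and 380 TPM, and no strand-specific kit is named, so how reads at their ends were divided is uncertain. Jun likewise overlaps the antisense gene Junos, which had 3.28, 1.15, 0.557 and 2.42 TPM. Atf3 (ENSMUSG00000026628.13), a stress-induced partner of Jun, was listed at 0 and 0.233 TPM in the control and at 0.117 and 0.0905 TPM with the fusion, and was not tested.

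Egr1 was the member of highest TPM in every library. Egr1 (ENSMUSG00000038418.7, chromosome 18), a zinc finger factor induced through SRF, had 33.5 and 58.2 TPM in the controls and 8.33 and 16.98 TPM with the fusion. The groups did not overlap, though replicates differed more than for Fos. The mean went from 45.9 ± 17.5 to 12.7 ± 6.12 TPM (SD, n = 2), 3.62-fold higher in the control, a log2 change of -1.80 ± 0.51 (SE, adjusted p = 0.0320, limma). That is -0.40 relative to all genes, and after rescaling it was -0.12 ± 0.37 (adjusted p = 0.835, limma). Without fusion replicate 1 the change was -1.33 and did not pass (adjusted p = 0.0564, limma). The change was below 0 in all 17 settings and passed in 8 of them.

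Nr4a1 had the lowest change of the tested members. Nr4a1 (ENSMUSG00000023034.7, chromosome 15, 101254269 to 101274795), an orphan nuclear receptor also called Nur77, had 16.3 and 22.8 TPM in the controls and 1.66 TPM and a listed 0 with the fusion. The groups did not overlap under either scaling. The log2 change was -3.63 ± 0.62 (SE, adjusted p = 0.00745, limma), which is -2.23 relative to all genes, and 8.49% of tested genes had a lower change. After rescaling it was -2.36 ± 0.83, without passing (adjusted p = 0.0906, limma). It was below 0 in all 17 settings, from -5.53 to -1.67, and passed in 12 of them.

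Ier2 and Zfp36 did not pass. Ier2 (ENSMUSG00000053560.5, chromosome 8, 84661331 to 84662852), a small nuclear regulator induced by growth factors, had 11.7 and 7.25 TPM in the controls and 1.15 and 5.05 TPM with the fusion. The groups did not overlap, with a log2 change of -1.51 ± 0.65 (SE, adjusted p = 0.0985, limma), and -0.11 after rescaling (adjusted p = 0.907). It passed only without fusion replicate 2 among the settings tried. Zfp36 (ENSMUSG00000044786.6, chromosome 7, 28376784 to 28380253), for tristetraprolin, had 0.957 and 1.62 TPM against 1.71 and 1.26 TPM. The groups overlapped, with a log2 change of 0.13 ± 0.32 (adjusted p = 0.755, limma), or 1.53 relative to all genes. After rescaling both fusion libraries were above both control libraries, at 3.74 and 1.82 against 0.537 and 0.781 rescaled TPM (log2 change 1.14, adjusted p = 0.0890, limma).

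**Figure D2:**
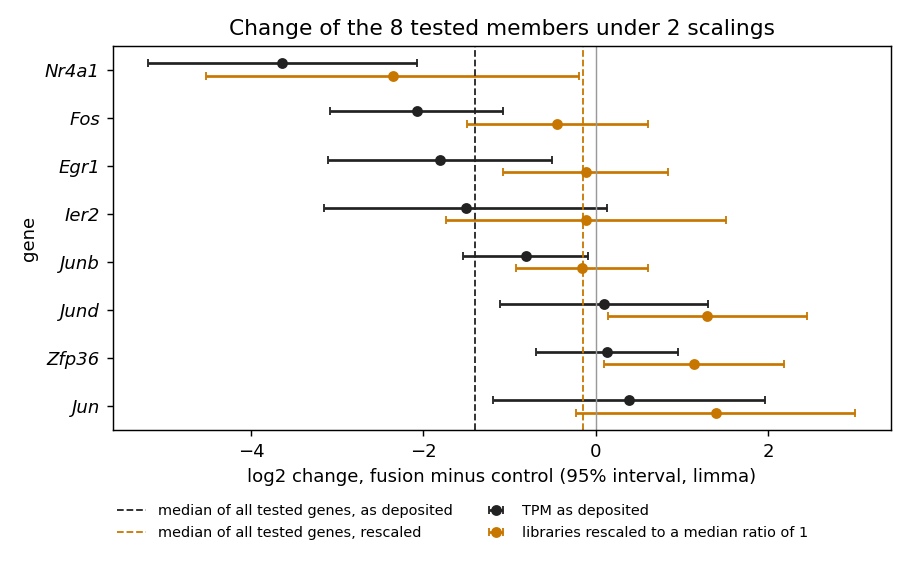
Log2 change (fusion minus control) with its 95% interval for the 8 tested members, from TPM as deposited (black) and after rescaling to a median ratio of 1 (orange), with dashed lines at the medians of all tested genes. The intervals of Fos, Egr1, Nr4a1 and Junb exclude 0 before adjustment as deposited, and after rescaling those of Nr4a1, at -2.36, and of Jund and Zfp36, at 1.29 and 1.14, do so.

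The order of the members within a library does not depend on the library total. Egr1, Fos and Nr4a1 were the 3 highest members in both control libraries. In the fusion libraries Egr1 and Fos were still the 2 highest, while Nr4a1 ranked behind Zfp36 in replicate 1 and was at 0 in replicate 2. The ratio of Fos to Jund was 9.22 and 14.5 in the controls and 3.85 and 1.34 with the fusion. The ratio of Nr4a1 to Fos was 0.696 and 0.726 in the controls, and 0.280 and 0 with the fusion. The ratio of Egr1 to Fos was 1.44 and 1.86 against 1.41 and 3.16, so these groups overlapped. The ratios are given as values and were not tested.

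Ranks were also taken among all tested genes of the same library. Egr1 exceeded 74.5% and 80.4% of tested genes in the controls and 74.6% and 79.6% with the fusion, so its rank overlapped between groups. Fos exceeded 68.6% and 71.2% against 68.6% and 59.6%, with a narrow overlap. Nr4a1 moved from 61.9% and 65.4% to 42.1% and 0%. Jund moved the other way, from 21.4% and 14.5% to 40.6% and 53.2%, and Jun from 12.7% and 7.35% to 28.5% and 57.2%. Zfp36 moved from 5.03% and 10.1% to 42.8% and 30.1%. Junb also ranked higher, from 8.41% and 8.38% to 13.4% and 21.1%, though its TPM was lower in both fusion libraries. The TPM of Jun and Jund was likewise lower in fusion replicate 1, so a higher rank did not need a higher TPM. Low genes outside the members could also rank higher at a lower TPM in both fusion libraries. Ier5 went from 9.42% and 6.60% to 35.0% and 19.4%, and Egr3 from 5.13% and 15.6% to 27.9% and 25.7%. The share of all genes that ranked higher was not counted, so the higher ranks cannot be called particular to the members. These ranks are descriptions without a test.

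**Figure D3:**
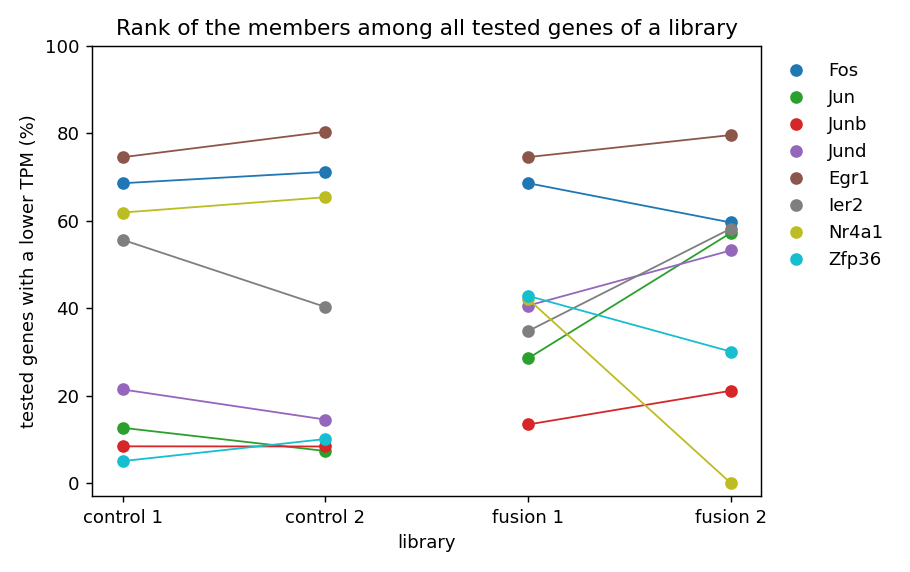
Share of tested genes (%) with a lower TPM than each of the 8 tested members, by library, with lines joining the 2 libraries of a group. Egr1 stays between 74.5% and 80.4%, Nr4a1 falls to 42.1% and 0%, and Jun, Junb, Jund and Zfp36 stand higher in both fusion libraries. For Junb this is so although its TPM is lower there.

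The members share features that their choice did not use. By their longest GENCODE M21 transcript, 4 of 10 (Jun, Junb, Jund and Ier2) have a single exon, against 10.8% of tested genes. Their transcripts have a median GC content of 56.5%, from 51.9% for Fos to 67.1% for Jund, against 48.8% for tested genes. GC content moved with the change over all genes: the median log2 change after rescaling was 0.29 for the 3738 genes under 45% GC, -0.44 for those from 50% to 55%, -0.58 for those from 55% to 60% and -0.37 for the 393 above 60%, the class of Junb, Jund and Ier2. The correction for GC content and length gave Nr4a1 -1.67, Egr1 -0.44, Jun 2.16 and Zfp36 2.11, the last 2 past the threshold (adjusted p = 0.0351 and 0.0122, limma), as were 13.7% of genes in that direction. This correction also recentres each library, so the part of GC content and length alone cannot be read from it.

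Other AP-1 subunits were mostly at or near 0. Of 11 listed genes, 4 entered the test and none passed, where 51.3% of all tested genes fell and 4.95% rose. All 4 log2 changes were below 0, from -1.16 to -0.23, with a median of -0.70 against -1.41 over all genes. None passed after rescaling either, where 18.6% of genes were lower and 14.3% higher. Atf2, a partner of Jun that is activated by stress kinases, had 20.5, 30.3, 9.30 and 11.97 TPM. Its log2 change was -1.16 (adjusted p = 0.0590, limma), and 0.50 after rescaling (adjusted p = 0.309). Its relative Atf7 had 5.62, 10.6, 4.51 and 9.15 TPM, with a log2 change of 1.30 after rescaling (adjusted p = 0.0816, limma). In rescaled TPM the lower fusion value of Atf2 and of Atf7 exceeded the higher control value, while the groups overlapped for Jdp2 and Mafg. Fosl1 was listed at 0 in every library. Fosl2 was at 0.202 TPM or less.

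Among the genes listed as paralogs of the members, Zfp36l2 and Nr4a3 rose, while Ier3, listed with them, fell. Of 6 tested genes of this list 2 rose and 1 fell, where 4.95% and 51.3% of all tested genes did. Their median log2 change was -0.46 against -1.41 over all genes. Zfp36l2, a relative of Zfp36 that also binds AU-rich elements, rose from 15.4 and 18.9 to 40.6 and 47.8 TPM (log2 change 1.32, adjusted p = 0.0282, limma), and by 3.01 after rescaling (adjusted p = 0.0108). Nr4a3, a paralog of Nr4a1, rose from 0.498 and 0.509 to 2.79 and 1.74 TPM (log2 change 1.10, adjusted p = 0.0300, limma), was also higher after rescaling (1.98, adjusted p = 0.0317), and entered the test through its fusion values alone. The direction of Nr4a3 follows from that filter, so its call cannot be set against the fall of Nr4a1, and the difference between them was not tested. Nr4a3 did not pass with a pseudocount of 0.1 (adjusted p = 0.0552, limma) or without the mean-variance trend (adjusted p = 0.0512, limma). Ier3, which shares its early induction but not its structure with Ier2, fell from 22.9 and 35.2 to 0.428 and 3.69 TPM (log2 change -3.51, adjusted p = 0.0109, limma), without passing after rescaling (adjusted p = 0.0700). Zfp36l1 had 41.0, 59.1, 51.8 and 20.8 TPM.

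Tested regulators upstream fell or did not pass, where 51.3% of all tested genes fell and 4.95% rose. Of 12 tested serum response and cyclic AMP response regulators 5 fell and none rose, and their median log2 change was -1.09. Srf, the factor on the serum response element, went from 1.28 and 2.19 TPM to 0.0599 and a listed 0 (log2 change -1.39, adjusted p = 0.00973, limma), and its change was -0.17 with the GC and length correction (adjusted p = 0.711). Its coactivator Mrtfb fell from 3.45 and 6.79 to 0.203 and 0.387 TPM, and the CREB coactivator Crtc1 from 2.83 and 3.43 TPM to 0.0626 TPM and a listed 0. All 5 that fell, Srf, Mrtfb, Crtc1, Elk1 and Mrtfa, entered the test through their control values alone, so their direction follows from the filter. After rescaling 3 of the 12, all among these 5, were lower and 1 higher, where 18.6% and 14.3% of all tested genes were. Mrtfb did not pass after rescaling (log2 change -1.24, adjusted p = 0.0509, limma). With the GC and length correction Mrtfb and Crtc1 did not pass (adjusted p = 0.0876 and 0.0613, limma). Of 12 tested MAP kinase pathway genes, none rose and 5 fell, with a median of -1.38, close to that of all genes. Mapk3, which encodes ERK1, fell from 18.5 and 28.6 to 2.66 and 0.0754 TPM, and Mapk10, a JNK kinase of neural cells, from 14.4 and 22.2 to 0.559 and 0.613 TPM. Map2k3, a kinase that activates p38, went from 3.38 and 7.004 TPM to a listed 0 and 0.200 TPM. Mapk10 and Map2k3 entered the test through their control values alone. Mapk3 did not pass after rescaling (log2 change -2.24, adjusted p = 0.137, limma) or with the GC and length correction (-1.38, adjusted p = 0.200), and Map2k3 did not pass with that correction (-0.23, adjusted p = 0.683).

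Other early response genes of dissociation signatures were called in both directions, in part through the filter. Among 20 tested genes 4 rose and 7 fell (median log2 change -0.91), against 4.95% and 51.3% of all tested genes. After rescaling 6 were higher and 2 lower, against 14.3% and 18.6%. Nfkbia, the inhibitor of NF-kappaB, fell from 43.2 and 58.2 to 1.24 and 1.64 TPM (log2 change -4.40, adjusted p = 0.00367, limma), and changed by -2.94 after rescaling (adjusted p = 0.0113). Plk2 fell from 45.9 and 58.8 to 3.17 and 6.15 TPM, and Myc from 27.0 and 26.2 to 3.07 and 2.37 TPM. Myc did not pass after rescaling (log2 change -1.35, adjusted p = 0.0820, limma) or with the GC and length correction (-0.75, adjusted p = 0.232). The 4 that rose were Klf2, Klf4, Gadd45b and Errfi1, which were chosen for naming after their values were seen. Klf4, a zinc finger factor of endothelial, myeloid and epithelial cells, had 0.0603 and 0.190 TPM in the controls and 5.22 and 4.34 TPM with the fusion. Klf2, Klf4 and Gadd45b entered the test through their fusion values alone, and Trib1, which fell, through its control values alone. The direction of these calls follows from the filter.

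Markers of other cell types also differed between the groups. At the same threshold 4.95% of all tested genes rose and 51.3% fell. Of 12 tested microglia and macrophage markers, 4 rose and 2 fell, and their summed TPM was 146 and 61.9 in the controls and 496 and 733 with the fusion. Fcer1g alone had 327 and 480 TPM there, while P2ry12, which defines microglia, was listed at 0 in both. Of 10 fibroblast markers, 4 rose and 1 fell, with sums of 62.7 and 172 against 536 and 1069 TPM. Of 8 endothelial markers 1 entered the test, Cdh5, which rose through fusion values of 1.11 and 1.13 TPM, with sums of 1.30 and 1.71 against 1.94 and 5.88 TPM. Of 8 mural markers 2 entered the test and neither passed, with sums of 58.3 and 217 against 16.03 and 76.8 TPM. Of 7 tested neuron and 7 tested astrocyte markers, 4 and 5 fell and none rose. All 7 tested oligodendrocyte markers fell, with sums of 2043 and 2877 against 182 and 147 TPM. After rescaling 2 neuron, 1 astrocyte and 4 oligodendrocyte markers were lower, where 18.6% of all tested genes were. In the other direction 1 neuron and 1 astrocyte marker were higher. The part of these cells in the values of the members was not tested.

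Most tested heat shock genes, the other arm of dissociation signatures, fell. Of 8 tested, none rose and 6 fell, where 4.95% and 51.3% of all tested genes did, with a median log2 change of -3.31. After rescaling 6 were lower and 1 was higher, where 18.6% and 14.3% of genes were. Hspa8, the constitutive chaperone Hsc70, fell from 1235 and 1418 to 67.9 and 124 TPM (log2 change -3.84, adjusted p = 0.00384, limma). Hspd1, the mitochondrial chaperonin, fell from 132 and 166 to 9.12 and 5.10 TPM. Its partner Hspe1 had 446, 393, 411 and 709 TPM and did not pass, but was higher after rescaling (log2 change 2.13, adjusted p = 0.0114, limma). The inducible genes Hspa1a and Hspa1b were at 1.66 TPM or less in every library, with both fusion libraries above both controls, and were not tested.

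**Figure D4:**
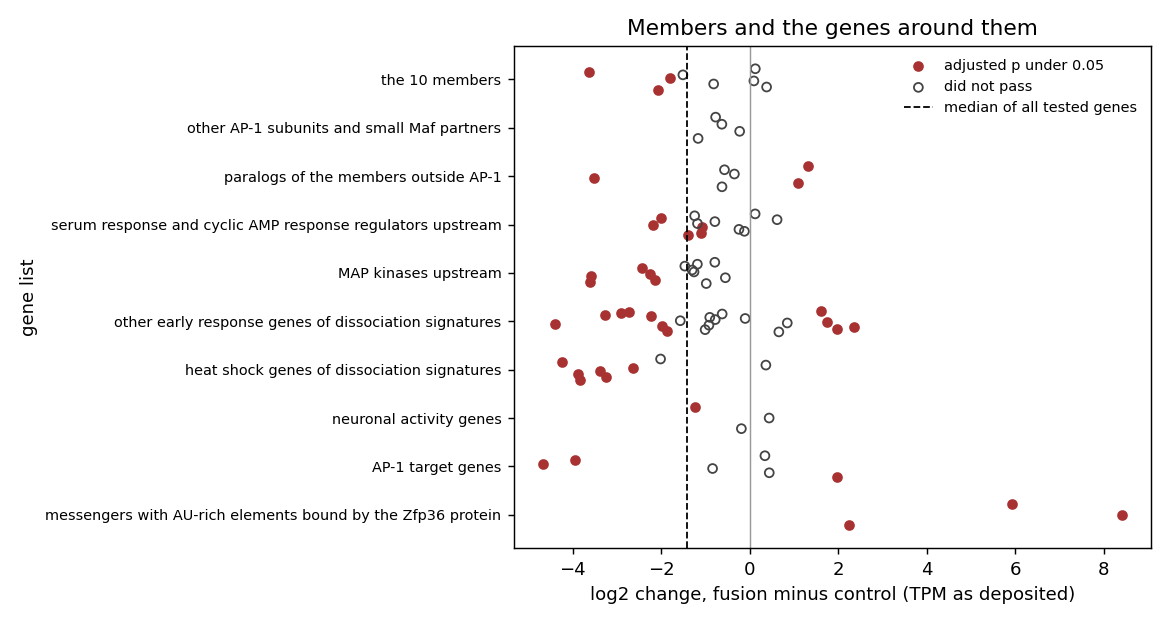
Log2 change (fusion minus control, TPM as deposited) of each tested gene in the members and in 9 lists of related genes, filled where the adjusted p is under 0.05, with a dashed line at the median of all tested genes, -1.41. The heat shock list lies mostly to the left of that line. Of the 11 AU-rich messengers only 3 are shown, which entered the test through their fusion values alone. Their place to the right of 0 follows from that filter.

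Targets of AP-1 lay on both sides of 0. Of 6 tested, 1 rose and 2 fell, where 4.95% and 51.3% of all tested genes did, with a median log2 change of -0.25 against -1.41 over all genes, and after rescaling 2 were higher and 2 lower. Ccnd1, for cyclin D1, fell from 113 and 139 to 4.51 and 3.48 TPM (log2 change -4.67, adjusted p = 0.00367, limma), and changed by -3.03 after rescaling (adjusted p = 0.0116). Hmox1, for haem oxygenase, fell from 38.4 and 47.3 to 1.36 and 2.36 TPM. Mmp9, a matrix protease that is also made by myeloid cells, was at a listed 0 in both controls and at 1.39 and 5.53 TPM with the fusion. It entered the test through its fusion values alone. Microglia and macrophage markers moved in both directions, as given above, and their part in the value of Mmp9 was not tested. Vegfa had 4.79, 8.08, 8.31 and 8.11 TPM and did not pass, but was higher after rescaling (log2 change 1.88, adjusted p = 0.0345, limma).

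**Figure D5:**
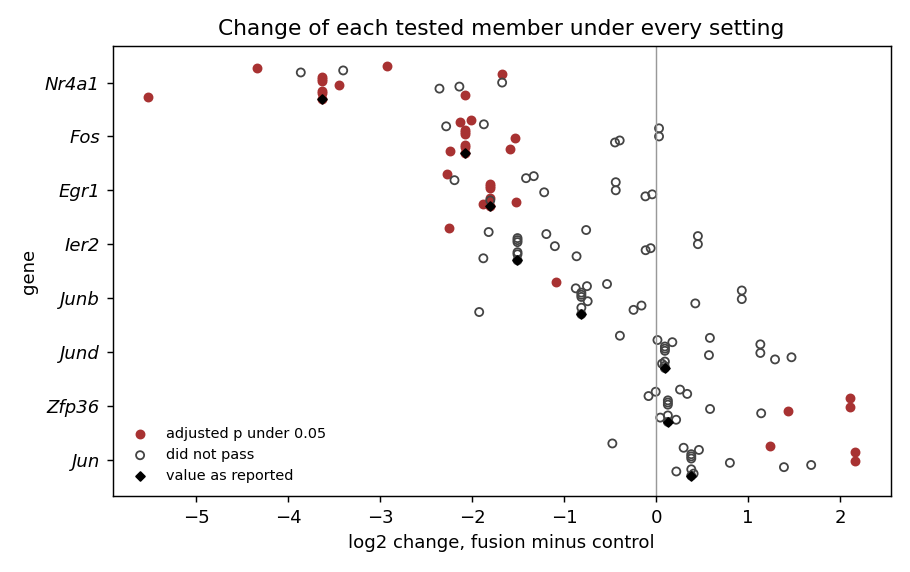
Log2 change of each tested member under the main analysis (black diamond) and under up to 16 alternative settings, filled red where the adjusted p is under 0.05. Nr4a1 and Egr1 stay below 0 in every setting, while Fos, Ier2, Junb, Jun, Jund and Zfp36 have values on both sides of 0.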

How the data were processed

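RNA-seq libraries were made from papain-dissociated, sorted cells with a single-cell full-length cDNA kit and sequenced on an MGISEQ-2000, per the labels' protocols. The authors deposited 1 table of TPM, with the same total for every library. The submitters' processing notes name Trimmomatic 0.39, Salmon 1.8.0 and the builds mm10 and GRCm38, and the sources used here do not give the annotation release. TPM keeps no depth, so no counting interval is given. Groups came from the sample titles. Whether replicates are separate mice is not labelled, so a p-value here reflects only the spread between libraries, possibly technical.

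Genes that reached 1 TPM in 2 or more libraries were compared as log2(TPM + 1), which understates the change of low genes, with limma 3.58.1 in R 4.3.3 (mean-variance trend, 2-sided, Benjamini-Hochberg over 12871 genes, threshold 0.05). There were 2 residual and 3.25 prior degrees of freedom. Coordinates, GC content and length came from GENCODE M21 (GRCm38), matched by Ensembl identifier without version for 12862 tested genes. Promoters came from RefSeq (GRCm38.p6). The fit was tested on simulated data with known changes. The members and lists were chosen with earlier results of these data known. Named were all members and, from each list, up to 3 genes past the threshold with the largest change and up to 2 others of highest mean, not all of them printed; others were chosen after their values were seen. Alternatives were other pseudocounts, filters, scalings and limma settings, a loess correction for GC content and length (span 0.3), a replicate block and each library left out. The loess was fitted to the deviations of each library from the gene means, so it also removed the shift between whole libraries.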

Additional observations from a re-analysis of the deposited data

How the results depend on the processing

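The number of members that fell (3) and rose (0) was 0 and 0 with median ratio scaling, 0 and 1 with quantile normalization, 0 and 2 with the GC content and length correction, and 1 and 2 with that correction and the replicate block. Leaving out single libraries gave 0 to 5 members that fell and 0 to 1 that rose, 14 to 1084 genes that rose and 1025 to 7987 that fell. All genes that rose numbered 353 with no filter, 405 with a mean of at least 5 TPM, 1846 with median ratio scaling, 1948 with quantile normalization, 961 without mitochondrially encoded and ribosomal protein genes, 1766 with the GC correction and 2075 with the correction and block. All genes that fell numbered 2396, 1955, 2117 and 2461 under median ratio scaling, quantile normalization, the correction, and the correction with block. The replicate block alone gave 3 members that fell and 0 that rose, with 642 and 6978 genes. Same-numbered libraries shared only a number (correlation of their deviations from the group means -0.0398), and the labels tie them to no shared animal.

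Single members turned in direction as follows: Fos to 0.032, Junb to 0.93 and Ier2 to 0.45 with the GC correction, with or without the block; Junb to 0.43 with quantile normalization; Jun to -0.48 and Jund to -0.39 without fusion replicate 2; Zfp36 to -0.083 without control replicate 1 and to -0.0045 without fusion replicate 1. Over the left-out libraries Jun ranged from -0.48 to 1.24, Jund from -0.39 to 0.59 and Zfp36 from -0.083 to 0.34. Of 124 values of members under alternatives, 87 kept direction and side of the threshold. The 26 other named genes that passed kept their direction in all 405 values, 82 of which no longer passed. They were chosen because they passed, most of them for the largest changes. That choice favours a kept direction, so they cannot be set beside the members. Where a call was lost by leaving out a library, fewer samples entered the fit; otherwise the cause was not tested. TPM keeps no depth, so the precision of members near 1 TPM is unknown.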

Other observations

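Most genes induced by neuronal activity were near the lower limit of the table, but Homer1 was not. Of 8 listed, 3 entered the test, 1 fell and none rose, where 51.3% and 4.95% of all tested genes did. Pcsk1, a prohormone protease, had 1.11 and 1.62 TPM in the controls and was at a listed 0 in both libraries with the fusion. It was the gene that fell, entered the test through its control values alone, and did not pass with the GC content and length correction (log2 change -0.084, adjusted p = 0.858, limma). Npas4 and Arc, the activity genes most specific to neurons, were at 0.0242 TPM or less and 0.669 TPM or less in every library. Homer1 had 7.63, 7.74, 8.34 and 5.23 TPM and Nptx2 1.45, 1.33, 2.80 and 1.76 TPM, without passing.

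Of 11 messengers known to be destabilised by tristetraprolin, 3 entered the test, each through its fusion values alone, and these 3 rose. Ccl2 and Ccl3, chemokines of inflamed glia and myeloid cells, had at most 0.901 TPM in a control library and 479 and 434 TPM, and 41.1 and 168 TPM, with the fusion. Cxcl1 was listed at 0 and 0.349 TPM in the control and at 3.49 and 5.77 TPM with the fusion. The summed level of the microglia and macrophage markers went from 146 and 61.9 TPM to 496 and 733 TPM, most of the latter from Fcer1g, as given above. Of the 12 tested markers 4 rose and 2 fell. The part of these cells in the chemokine values was not tested. Tnf and Il6 were listed at 0 in every library. Zfp36 itself overlapped between the groups, at 0.957, 1.62, 1.71 and 1.26 TPM.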
